A study of Mus musculus with 6 samples.

Results

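The genes described here encode the mitochondrial ribosomal proteins of the mouse, followed in colon RNA of mice labelled Smad4 knockout or wild type. Members were all rows of the deposited count table whose symbol is Mrpl or Mrps followed by a number and at most 1 letter, which gave 76 of 22354 genes. By name, 47 belong to the large subunit (Mrpl) and 29 to the small subunit (Mrps). The names and not the measured values chose them. For 75 members the gene ID was found in GENCODE M21 (build mm10), each as a protein-coding gene, and these lie on 17 chromosomes. The ID of Mrpl33 was not found there, so no position or length is given for it.

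Mitochondria carry a ribosome of their own, which translates the few messages of the mitochondrial genome, all of them parts of the respiratory chain and ATP synthase. Its ribosomal RNAs, mt-Rnr1 in the small subunit and mt-Rnr2 in the large subunit, are transcribed from mitochondrial DNA, whereas its proteins are encoded in the nucleus, made in the cytosol and imported. Some of these proteins have bacterial counterparts and others exist only in mitochondria. The large subunit forms peptide bonds and holds the tunnel through which the new chain leaves, and the small subunit holds the message and decodes it.

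The study compared 3 libraries labelled Smad4 knockout with 3 labelled wild type, called knockout and control here. Smad4 is the shared mediator of TGF-beta and BMP signalling. The knockout mice carry the genotype written Smad4ΔLrig1, named for Lrig1, a gene active in stem cells of the colon epithelium, and the controls are SMAD4+. All 6 mice were C57BL/6J, had been given tamoxifen and were dissected 1 month later. Age, sex and the alleles behind the genotype name are not given in the sources used here. Crypts were released with EDTA, and RNA of the layer under the epithelium, scraped from the muscle, was read from 1 end for 51 bases.

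Library totals lay between 18918880 and 25867997 counts, of which the members took 0.272% to 0.317%. Levels are CPM, counts scaled to the size of the library and by TMM. Smad4 was at 132, 153 and 111 CPM in the controls and at 91.9, 102 and 59.0 CPM in the knockouts, with no overlap, and its adjusted p was 0.338 with edgeR and 0.0799 with DESeq2. The tissue is labelled as stroma, but 13 epithelial markers summed to 28660 to 37090 CPM in every library while 8 fibroblast markers summed to 10.3 to 26.5 CPM. Smooth muscle markers summed to 57.2 CPM in control replicate 1 and to 14.2 to 17.3 CPM in the other libraries. B cell markers summed to 26.3 to 38.7 CPM in the controls and 76.9 to 168 CPM in the knockouts. In such bulk RNA, fewer cells of a type and less RNA per cell cannot be told apart.

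The levels of the members covered a wide range. To compare genes with each other, the mean CPM over 6 libraries was divided by the length of each gene's merged exons. On this scale of CPM per kb, the 75 members with a length ran from 0.0528 to 87.0. The gene at the 90th percentile stood 8.85-fold above the gene at the 10th. The median was 17.1 CPM per kb for large-subunit names and 10.1 for small-subunit names.

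The highest level was that of Mrpl12, whose protein forms the flexible stalk that recruits translation factors. The gene lies at chr11:120484613-120489065 on the plus strand. Its level was 77.4, 92.9 and 98.0 CPM per kb in the controls and 92.2, 77.2 and 84.2 in the knockouts. Mrpl34 (chr8:71464959-71465747, plus strand), the counterpart of a small bacterial large-subunit protein, followed with 70.7, 85.7 and 92.0 in the controls and 91.4, 77.3 and 80.3 in the knockouts. The values of this pair overlap, so their order is not settled by the spread between libraries. Mrpl54, a large-subunit protein found only in mitochondria, came next at 48.6 to 61.3 CPM per kb, below every library's value for Mrpl34. Mrpl52, a protein of the central protuberance (47.7 to 55.1), and Mrpl28 (41.4 to 58.5) overlap with Mrpl54 and with each other. The order of the top depends on the length used. With the length of the median coding transcript in place of merged exons, 2 of the top 5 members and 4 of the bottom 5 were shared. Mrpl20, named after its value was seen, then stood highest at 138 CPM per kb, followed by Mrpl52 at 136, both above Mrpl12.

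**Figure D1:**
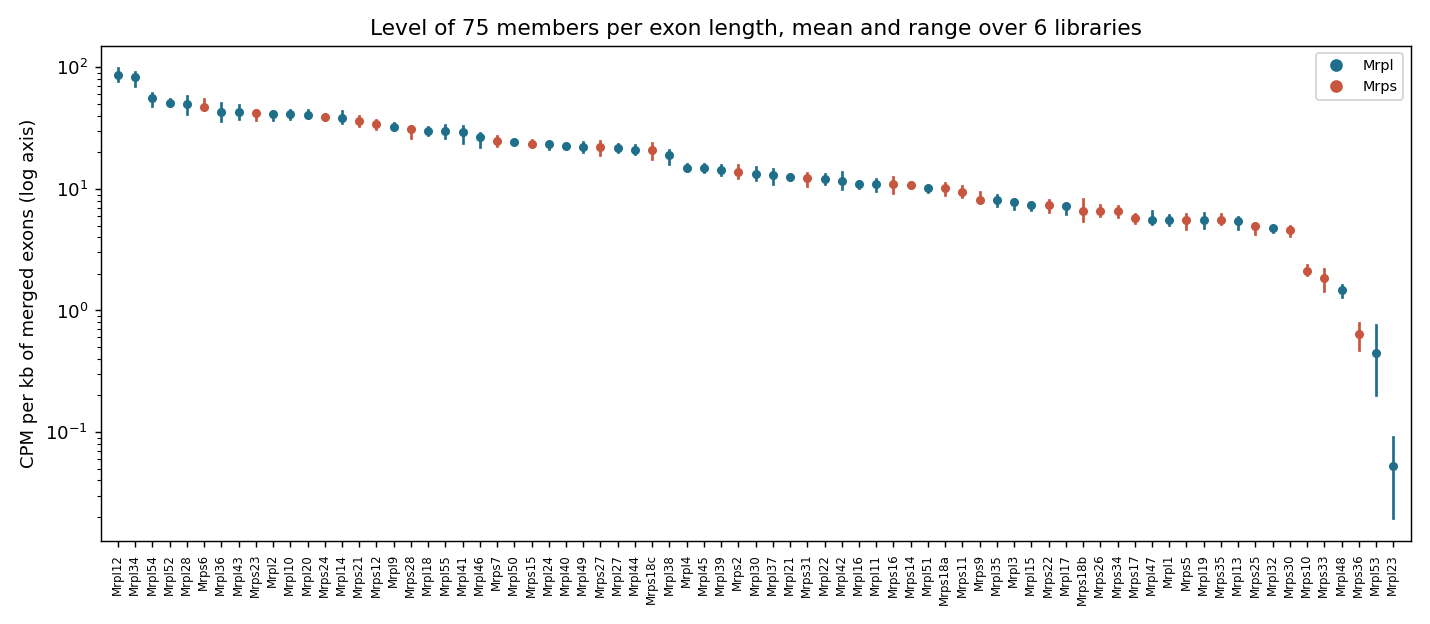
Level of the 75 members with a gene length, in CPM per kb of merged exons on a log axis, ordered from high to low. Points are means over the 6 libraries, bars the range over them, and colours the subunit by name. Most members lie within about a decade, and Mrpl23 at 0.0528 stands far below Mrpl12 at 87.0.

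The stretches before the start of the 2 most abundant members and of the 2 with the smallest p-values below are shown because they hold, or lack, the motifs described next. They are the 100 bases before the gene start (RefSeq, GRCm38.p6), read 5′ to 3′ on the gene's strand. Capitals mark a match to the NRF1 motif (GCGCA, any base, then GCGC) on the opposite strand in Mrpl12, so that the printed letters are its reverse complement, and to the ETS motif CCGGAAG on the printed strand in Mrpl34. NRF1 and the ETS factor GABP are known activators of nuclear genes for mitochondria.
Mrpl12, chr11:120484513-120484612, plus strand: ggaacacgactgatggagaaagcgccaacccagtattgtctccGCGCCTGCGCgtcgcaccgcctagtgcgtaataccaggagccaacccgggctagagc
Mrpl34, chr8:71464826-71464925, plus strand: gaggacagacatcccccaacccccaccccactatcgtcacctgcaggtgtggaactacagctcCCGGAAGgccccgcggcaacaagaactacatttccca
Mrps16, chr14:20393635-20393734, minus strand: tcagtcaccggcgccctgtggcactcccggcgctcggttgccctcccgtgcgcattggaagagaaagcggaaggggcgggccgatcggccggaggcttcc
Mrpl42, chr10:95501950-95502049, minus strand: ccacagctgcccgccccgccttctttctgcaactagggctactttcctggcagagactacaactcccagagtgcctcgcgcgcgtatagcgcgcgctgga

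RefSeq windows, from 250 bases before to 50 after the start, were matched by symbol for 67 of the 76 members. The ETS motif was found on either strand in 24 of them (35.8%), against 9.93% of all 27025 genes with a window. The NRF1 motif was found in 12 (17.9% against 5.19%), and the YY1 motif (AAGATGG followed by CGGC) in 5 (7.46% against 0.755%). The TATA motif TATAAA was in 5 (7.46% against 15.7%) and CCAAT in 27 (40.3% against 41.1%). The windows of the members had a median GC content of 58%, against 52.8% over all genes, and motifs were counted separately, so that a stretch may hold several. The 27025 genes include genes not expressed in this tissue. Shares over the 14180 tested genes alone were not computed, so an excess here may not be particular to the members. These motifs were chosen after shares had been seen, and a match is a run of letters, not a measured site. Mrps16 has an ETS match in its window outside the stretch printed, and Mrpl42 has neither an ETS nor an NRF1 match.

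At the other end, the lowest members per kb of merged exons were genes part of whose sequence also stands in another gene. Mrpl23 encodes a protein at the exit of the large subunit's tunnel and lies at chr7:142532686-142540747 on the plus strand. It was given 3, 6 and 8 counts in the controls and 5, 2 and 10 in the knockouts. The annotated pseudogene Mrpl23-ps1 was given 255, 221 and 294 counts in the controls and 237, 219 and 208 in the knockouts. Every library thus credited far more reads to the pseudogene than to the gene. All 388 stretches of 51 bases in the coding sequence of Mrpl23, the length of a read, are also found in Mrpl23-ps1.

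Mrps36 shows the same arrangement. It carries a small-subunit name, but its protein is now known as a part of the 2-oxoglutarate dehydrogenase complex. The gene (chr13:100735955-100744659, minus strand) was given 20, 16 and 15 counts in the controls and 22, 16 and 16 in the knockouts. Mrps36-ps1 was given 106, 109 and 164 counts in the controls and 124, 90 and 92 in the knockouts. Of its 256 coding stretches, 154 (60.2%) are also in Mrps36-ps1. For Mrpl48, of the central protuberance, the transcript used has only 155 coding bases of 865. Of its 105 coding stretches, 24 (22.9%) are in Mrpl48-ps, which was given 207 to 314 counts beside 231 to 320 for Mrpl48. Per kb, Mrpl48 was at 1.47 CPM with merged exons and 13.9 with the median coding transcript, a length at which it left the lowest 5. Mrps33, a small-subunit protein found only in mitochondria, was given 48 to 91 counts, and Gm5776, which shares part of its sequence, 81 to 107. The part of these copies in the counts was not tested.

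A shared stretch of read length from each of 3 coding sequences is shown, since a read of these letters matches both genes. These are GENCODE M21 (mm10) letters, 5′ to 3′ on the gene's strand, and each occurs without a mismatch in the pseudogene.
Mrpl23, chr7:142537271-142537321, plus strand: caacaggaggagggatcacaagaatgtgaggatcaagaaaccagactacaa
Mrps36, chr13:100739070-100739120, minus strand: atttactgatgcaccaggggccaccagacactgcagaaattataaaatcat
Mrpl48, chr7:100559759-100559809, minus strand: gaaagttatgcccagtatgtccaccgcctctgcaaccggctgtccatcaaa

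**Figure D2:**
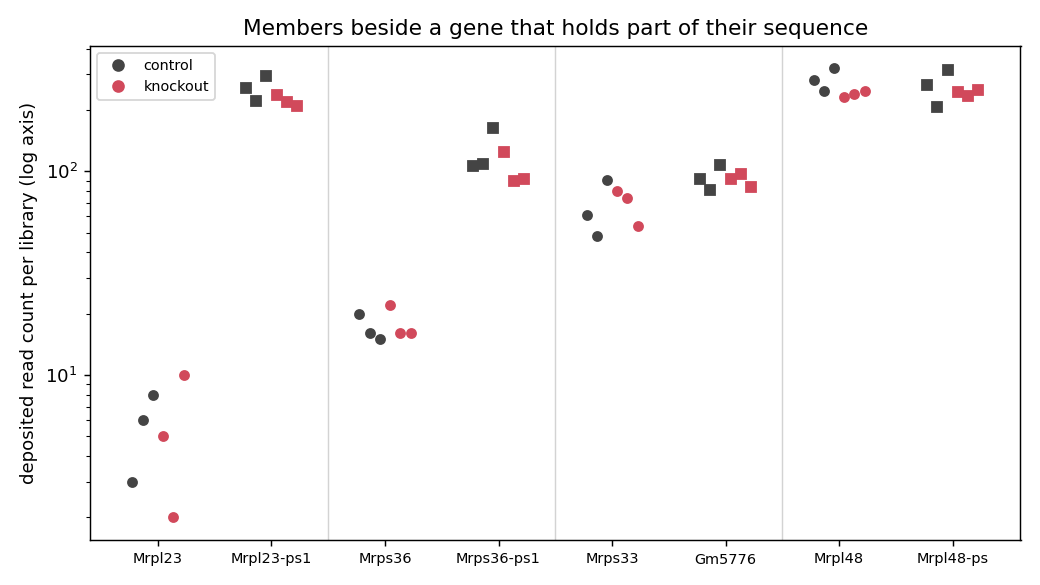
Deposited read counts per library, on a log axis, for 4 members (circles) beside the gene that holds part of their sequence (squares), control in grey and knockout in red. Mrpl23 has 2 to 10 counts where Mrpl23-ps1 has 208 to 294.

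Mrpl53, a large-subunit protein found only in mitochondria, is low beside an overlapping gene. It was given 4, 8 and 4 counts in the controls and 13, 9 and 7 in the knockouts. The predicted gene Gm42688 on the same strand covers 88.0% of its exon bases. It holds all 645 of the 51-base stretches of Mrpl53's median coding transcript, and 645 of 788 over all its transcripts. Mrpl23 and Mrpl53 had too few counts to be tested, which left 74 tested members. Over all 75 members, 51-base stretches found in another gene's transcripts make up a median of 2.82% of the median coding transcript, less than 10% in 46 members and more than 50% in 6. The 6 are Mrpl23, Mrpl48 and Mrpl53 and also Mrps18b (87.0%), Mrps25 (73.9%) and Mrps34 (52.3%), of which the last 2 were named after their values were seen. Exons of 31 members overlap those of another gene, on the opposite strand for 27, and the sources used here do not say whether strand was used in counting.

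Between knockout and control, no mitochondrial ribosomal protein gene passed the test. The edgeR quasi-likelihood test with Benjamini-Hochberg adjustment over 14180 genes called 0 of 74 members, and the background was also 0% of genes at a threshold of 0.05. The smallest adjusted p of a member was 0.507. DESeq2 called 2.31% of all genes and the edgeR exact test 2.71%, and each called 0 members. With no count filter, edgeR called 0.702% of genes and 0 members. An unadjusted p under 0.05 was reached by 8.54% of genes and by 2 members. Both had lower values in the knockout (background 3.35% of genes in that direction), and 0 had higher values (background 5.19%). In the authors' deposited table the smallest adjusted p of a member was 0.423, for Mrps16. A p that misses the threshold does not show that levels are alike, so the intervals are given as well.

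The estimates were small and their intervals narrow. The log2 fold changes, knockout over control, ran from −0.25 for Mrps16 to 0.24 for Mrps18b, and 52 of 74 lay within 0.1 of 0. The median was −0.049, against −0.011 over all tested genes. The 95% interval stayed inside a 1.5-fold change in either direction for 71 members (95.9%), against 63.9% of all tested genes. The exceptions were Mrps18b, Mrps33 and Mrps36, whose intervals reached 0.59, 0.65 and 0.76. The median distance from the estimate to the end of the interval was 0.224, against 0.315 over all tested genes. Across replicates, the median coefficient of variation of a member was 7.62% in the controls and 7.67% in the knockouts.

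**Figure D3:**
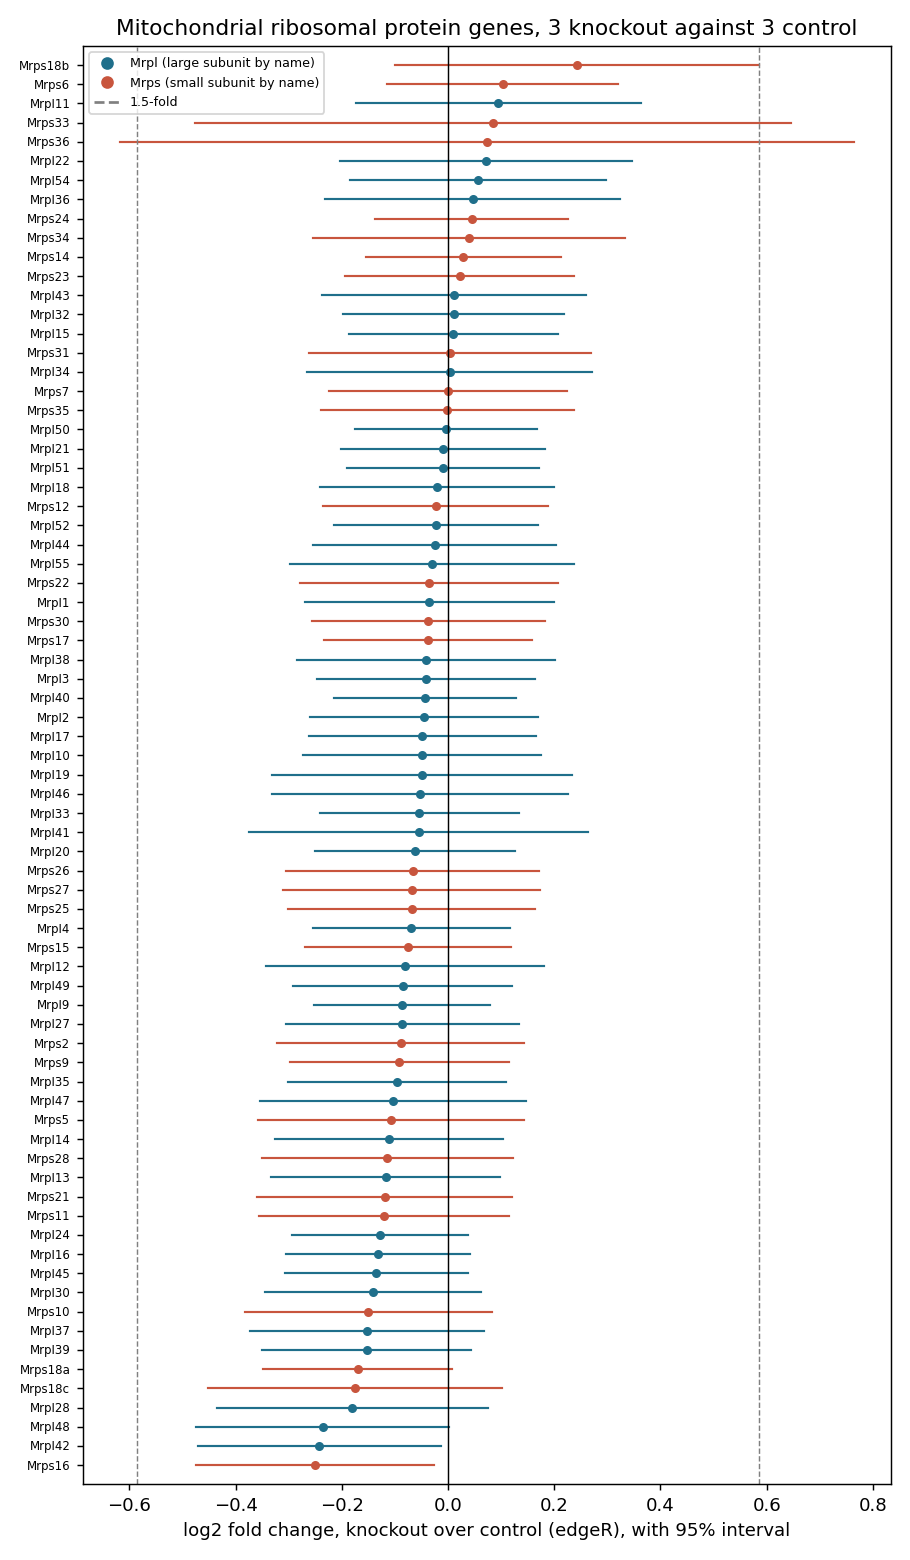
Log2 fold change, knockout over control, of the 74 tested members with the 95% interval of the edgeR fit, ordered from high to low. Colours give the subunit by name and dashed lines mark a 1.5-fold change. All estimates lie between −0.25 and 0.24, and 71 intervals stay between the dashed lines.

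The lowest estimate belonged to Mrps16, counterpart of a bacterial small-subunit protein, at chr14:20389304-20393634 on the minus strand. Its level was 31.0, 35.9 and 35.2 CPM in the controls and 30.8, 26.8 and 28.1 CPM in the knockouts. The groups do not overlap, but the highest knockout lies just under the lowest control. The mean was 34.0 ± 2.64 CPM against 28.6 ± 2.07 (SD, n = 3), a log2 fold change of −0.25 ± 0.10 (SE). Its edgeR unadjusted p was 0.0329 and its adjusted p 0.507.

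Mrpl42 (chr10:95480805-95501940, minus strand) encodes a large-subunit protein found only in mitochondria. It was at 43.6, 43.3 and 51.0 CPM in the controls and 37.7, 36.6 and 42.3 CPM in the knockouts. Here too every knockout lies below every control. The log2 fold change was −0.24 ± 0.10 (SE), with an edgeR adjusted p of 0.537.

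Mrpl48 was at 12.8, 13.3 and 12.8 CPM in the controls and 10.6, 11.3 and 11.1 CPM in the knockouts, with no overlap and little spread. Its log2 fold change was −0.24 ± 0.10 (SE), with an edgeR adjusted p of 0.59. Part of its sequence is shared with Mrpl48-ps and its exons overlap those of Rab6a on the opposite strand, so its count is uncertain. Mrpl48-ps had a log2 fold change of −0.097 ± 0.11 (SE) with an edgeR adjusted p of 0.912.

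Mrpl28 was at 67.5, 73.6 and 80.7 CPM in the controls and 72.8, 57.2 and 65.8 CPM in the knockouts. The groups overlap, and the log2 fold change was −0.18 with an edgeR adjusted p of 0.774.

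The 3 Mrps18 genes are paralogs of a bacterial small-subunit protein, and their proteins sit at different places. Mrps18c takes the bacterial position in the small subunit, Mrps18b another position in the small subunit, and Mrps18a is in the large subunit despite its name. Mrps18a was at 38.7, 38.6 and 41.0 CPM in the controls and 35.9, 33.2 and 36.0 CPM in the knockouts, without overlap (log2 fold change −0.17, edgeR adjusted p 0.614). Mrps18c was at 21.2, 25.7 and 25.2 CPM in the controls and 18.9, 21.9 and 23.1 CPM in the knockouts, with overlap (−0.18, adjusted p 0.808 with edgeR). Mrps18b had the highest estimate of all members, at 13.4, 13.1 and 11.4 CPM in the controls and 15.0, 12.4 and 17.4 CPM in the knockouts. These groups overlap as well, since knockout replicate 2 lies under 2 of the controls. Its log2 fold change was 0.24 ± 0.15 (SE), with an edgeR adjusted p of 0.774. The antisense gene Gm16279 overlaps Mrps18b, and 87.0% of the 51-base stretches of its median coding transcript also stand in another gene, so the source of its reads is uncertain without strand.

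Mrps6, of the small subunit's platform, was at 68.5, 73.2 and 69.7 CPM in the controls and 74.9, 84.4 and 67.8 CPM in the knockouts. The lowest of the 6 values is a knockout, so the groups overlap (log2 fold change 0.10, edgeR adjusted p 0.883). Mrpl11, at the base of the stalk, was at 31.3, 33.3 and 38.2 CPM against 39.2, 31.9 and 38.9 CPM (0.095, edgeR adjusted p 0.915). Mrpl22, which lines the exit tunnel, was at 10.9, 12.6 and 11.2 CPM against 11.5, 11.7 and 13.1 CPM (0.071, edgeR adjusted p 0.946). Mrps33 was at 2.80, 2.58 and 3.63 CPM against 3.68, 3.51 and 2.40 CPM (0.085), and Mrps36 at 0.917, 0.859 and 0.598 CPM against 1.01, 0.760 and 0.710 CPM (0.073). All of these groups overlap. Mrps30, a large-subunit protein in spite of its name, was at 31.3, 30.7 and 31.3 CPM in the controls and 30.3, 27.3 and 33.3 CPM in the knockouts. Its controls are close together and lie inside the range of the knockouts (−0.037).

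Of the most abundant members, Mrpl12 was at 137 ± 16.5 CPM in the controls and 130 ± 11.5 in the knockouts (log2 fold change −0.081, edgeR adjusted p 0.935). Mrpl34 was at 50.3 ± 6.64 and 50.4 ± 4.53 CPM (0.003), Mrpl54 at 45.4 ± 4.99 and 47.2 ± 3.60 (0.056), and Mrpl52 at 57.2 ± 4.10 and 56.3 ± 2.997 (−0.023; SD, n = 3 for each). In all 4, the difference between means is smaller than the SD of either group. The 57 tested members outside the rule for named genes had log2 fold changes from −0.153 to 0.047, mean levels from 13.5 to 87.3 CPM and a smallest edgeR adjusted p of 0.724.

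In 9 members every knockout lay below every control, and in 0 every knockout lay above, where the background was 6.52% of genes lower and 6.76% higher. The 9 make up 12.2% of the tested members. They are Mrps16, Mrpl42, Mrpl48 and Mrps18a and, named after their values were seen, Mrpl9, Mrpl16, Mrpl24, Mrpl37 and Mrpl45. Their log2 fold changes ran from −0.251 to −0.086, and their edgeR adjusted p from 0.507 to 0.866. Mrpl24, at the tunnel exit, had the tightest controls of the added genes, at 54.3, 54.7 and 55.0 CPM, with knockouts at 49.2, 53.1 and 47.9 CPM. Mrpl45, which ties the tunnel exit to the inner membrane, was at 38.9, 41.5 and 41.4 CPM and at 38.3, 35.7 and 36.9 CPM.

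More members had a lower than a higher estimate in the knockout, 56 against 18, which is 75.7% against 53.1% of all tested genes. That count rested on knockout replicate 2. This library held the lowest value of all 6 for 43 of the 76 members, and 70 of the 74 tested members were under their control mean there. Expressed as log2 of a member's level over its control mean, the median member was at −0.151 in knockout replicate 2, 0.020 in knockout replicate 1 and −0.038 in knockout replicate 3. The controls were at −0.064, 0.035 and 0.044 on the same scale, so that knockout replicates 1 and 3 lie within the range of the controls. Without knockout replicate 2, the median log2 fold change of the members was 0.010, with 39 higher and 35 lower. Without control replicate 1, the library with the smooth muscle markers, it was −0.079, with 12 higher and 62 lower, and the smallest edgeR adjusted p was 0.206.

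Knockout replicate 2 was the lowest library in the related lists, except nuclear genes of the respiratory chain and genes encoded by mitochondrial DNA. On the same scale, its median gene was at −0.147 for cytosolic ribosomal proteins, −0.142 for assembly factors of the mitochondrial ribosome and −0.139 for mitochondrial tRNA synthetases. It was at −0.2 for proteins of this ribosome with other names and −0.119 for mitochondrial translation factors. For genes for expression of the mitochondrial genome and its regulators it was at −0.17, against −0.016 over all genes. Control replicate 2 was nearly as low for cytosolic ribosomal proteins, at −0.118. For nuclear genes of the respiratory chain, knockout replicate 2 was at −0.088, above control replicate 1 at −0.174 and knockout replicate 3 at −0.105. For genes encoded by mitochondrial DNA it was at −0.475, above knockout replicate 3 at −0.61. Its depth of 21344315 counts and its epithelial marker sum of 32930 CPM lay within the range of the other libraries. The reason for its low values was not tested.

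**Figure D4:**
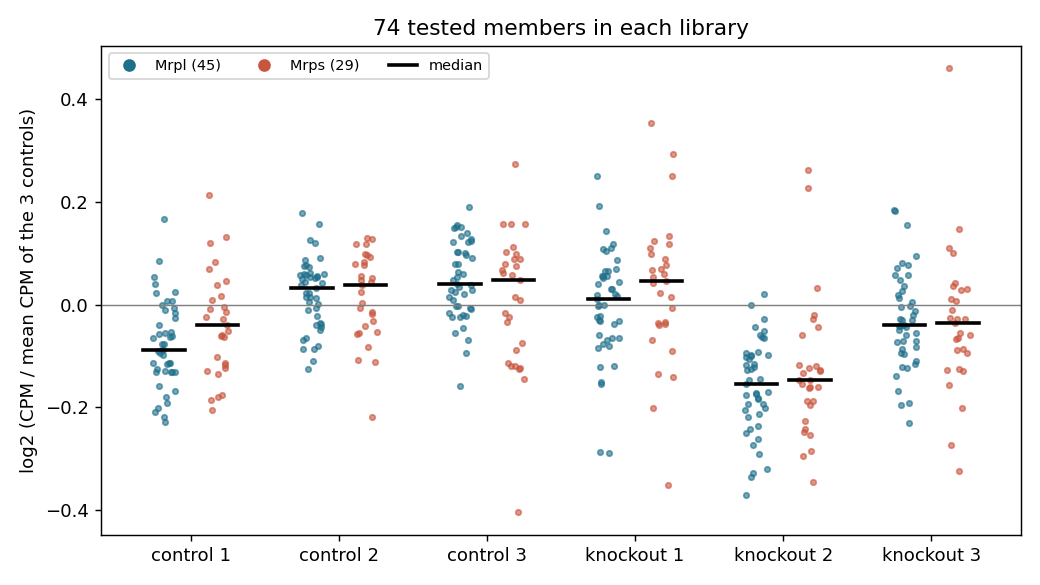
Log2 of each tested member's CPM over its mean in the 3 controls, per library, for 45 Mrpl and 29 Mrps genes, with black bars for medians. Knockout replicate 2 lies lowest, with a median of −0.151 over all members, for both subunits alike.

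The proportion of large to small subunit genes overlapped between groups. The large-subunit genes summed to 1945, 2089 and 2150 CPM in the controls and 2069, 1839 and 2019 CPM in the knockouts. The small-subunit genes summed to 967, 1016 and 1018 CPM in the controls and 1016, 921 and 984 CPM in the knockouts. In both sums the groups overlap. The ratio of large to small was 2.01, 2.06 and 2.11 in the controls and 2.04, 2.0 and 2.05 in the knockouts, or 2.06 ± 0.0511 and 2.03 ± 0.0272 (SD, n = 3). The difference in its log2 of −0.0217 is smaller than the SD of the controls of 0.0358 and slightly larger than that of the knockouts of 0.0194. With Mrps18a and Mrps30 moved to the large subunit and Mrps36 left out, the ratio was 2.29 ± 0.0533 in the controls and 2.25 ± 0.0365 in the knockouts. All members together summed to 3062 ± 133 CPM in the controls and 2949 ± 169 in the knockouts, which is 96.3% of the control level.

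Within the ribosome, 0 genes of any structural region were called by edgeR or DESeq2 (background 0% and 2.31% of genes). The regions were listed with the values known, and they were not tested against each other. The 4 genes of the stalks had a median log2 fold change of −0.042, and 3 of them were negative. The 7 tested genes of the tunnel exit had a median of −0.104, with 6 negative, and 2 of them, Mrpl24 and Mrpl45, did not overlap between groups (background 6.52%). The genes of the tunnel exit summed to 254, 266 and 267 CPM in the controls and 256, 238 and 246 CPM in the knockouts, with overlap between the groups. The 8 genes of the central protuberance had a median of −0.042, and all 8 were negative. The 4 genes around the peptidyl transferase centre, among them Mrpl2 and Mrpl3, had a median of −0.057. In the small subunit, the median was −0.046 for 4 genes of the head, −0.120 for 4 of the platform and −0.056 for 4 at the message's entry and decoding site. The 47 tested members with a bacterial counterpart had a median of −0.062 and the 26 found only in mitochondria −0.039.

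Among nuclear genes that work with this ribosome, 0 were called by edgeR or DESeq2 (background 0% and 2.31% of genes). The 7 ribosomal proteins with other names had a median of −0.107. Ict1, a peptidyl-tRNA hydrolase built into the large subunit, was at 37.2, 39.3 and 44.0 CPM in the controls and 35.4, 34.9 and 33.2 CPM in the knockouts, without overlap (log2 fold change −0.22 ± 0.09 SE, edgeR adjusted p 0.536). Chchd1 was at −0.17 and Mrp63 at 0.14. The 26 tested rows of assembly factors had a median of −0.050, led by Mettl17 (−0.17), Trmt2b (−0.16) and Ngrn (−0.13).

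The 14 translation factors had a median of −0.084. Guf1, a GTPase that acts on the mitochondrial ribosome, was at 36.4, 35.8 and 30.8 CPM in the controls and 28.9, 30.6 and 27.4 CPM in the knockouts (−0.24 ± 0.10 SE, edgeR adjusted p 0.522). The groups do not overlap, but the highest knockout is next to the lowest control. The elongation factors Tsfm and Tufm were at −0.15 and −0.16. The 17 tRNA synthetases had a median of −0.043, with Sars2 and Wars2 at −0.20 and −0.21.

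Among 16 genes for expression of the mitochondrial genome and its regulators, the median was −0.041. Ppargc1a, a coactivator of genes for mitochondria, was at 43.7, 38.7 and 46.8 CPM in the controls and 28.7, 40.6 and 31.2 CPM in the knockouts. Knockout replicate 2 lies inside the control range, and the log2 fold change was −0.36 ± 0.14 (SE) with an edgeR adjusted p of 0.513. Its relative Ppargc1b was at −0.22 and Gabpa, the DNA-binding part of GABP, at −0.094. The 78 tested genes listed as nuclear genes of the respiratory chain and ATP synthase had a median of −0.076, with 74 negative. That list includes Cox4nb (−0.146), which is not a subunit of either. For the 78 cytosolic ribosomal protein genes the median was −0.080, with 67 negative. Some of these had few counts, with 22 to 46 per library for Rpl19 and 13 to 34 for Rpl35.

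The genes of the mitochondrial genome, whose messages this ribosome translates, had lower values in the knockout. Of 29 listed genes, 15 were tested. The messages among those tested are mt-Co1, mt-Cytb, mt-Nd1, mt-Nd2, mt-Nd4, mt-Nd5 and mt-Nd6, and the others are ribosomal RNAs and tRNAs. All 15 tested genes had a negative log2 fold change, with a median of −0.526. In 13 of them every knockout lay below every control (background 6.52%). The edgeR test called 0 of them after adjustment (smallest adjusted p 0.0958) and 12 at an unadjusted p under 0.05 (background 3.35%). These genes share 1 genome, so the counts of 13 and 12 are not counts of separate observations. DESeq2 called 7 of them lower, where it called 47 of all 14180 tested genes lower (2.31% in either direction). It called 6 to 9 of them when any library was left out. The 29 listed genes summed to 25230, 26820 and 30910 CPM in the controls and 20090, 20360 and 17930 CPM in the knockouts. The knockout mean is 70.4% of the control level.

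The subunit of respiratory complex I mt-Nd6 was at 995, 1077 and 1151 CPM in the controls and 704, 729 and 704 CPM in the knockouts. These groups lie far apart, and the log2 fold change was −0.59 ± 0.09 (SE), with an adjusted p of 0.0958 in edgeR and 1.01e-07 in DESeq2. The subunits mt-Nd2 (−0.51) and mt-Nd5 (−0.57) also fell by DESeq2, with adjusted p of 5.04e-07 and 1.72e-06. Genes of this genome abut and lie on both strands, and nuclear copies of it exist, so the split of reads among them is uncertain.

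The ribosomal RNAs that these proteins bind overlapped between groups. The small-subunit RNA mt-Rnr1 was at 236, 314 and 423 CPM in the controls and 285, 252 and 230 CPM in the knockouts (log2 fold change −0.34 ± 0.20 SE, edgeR adjusted p 0.755). The large-subunit RNA mt-Rnr2 was at 566, 701 and 984 CPM in the controls and 654, 612 and 512 CPM in the knockouts (−0.34 ± 0.20 SE, edgeR adjusted p 0.758). Control replicate 3 was highest in both.

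The 29 listed genes of the mitochondrial genome, of which 15 were tested, were also set against the protein genes of the ribosome. Their sum was 8.66, 8.63 and 9.76 times that of the protein genes in the controls and 6.51, 7.38 and 5.97 times in the knockouts. These groups do not overlap. B cell markers moved with the groups as well, with all 9 higher in every knockout than in every control, as were 5 of 8 T cell markers, 4 of 7 tested fibroblast markers, 2 of 5 macrophage markers and 1 of 2 endothelial markers (background 6.76% of genes). Macrophage markers summed to 20.8 to 24.6 CPM in the controls and 31.6 to 70.8 CPM in the knockouts. Their part in the lower values of the mitochondrial genome was not tested.

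**Figure D5:**
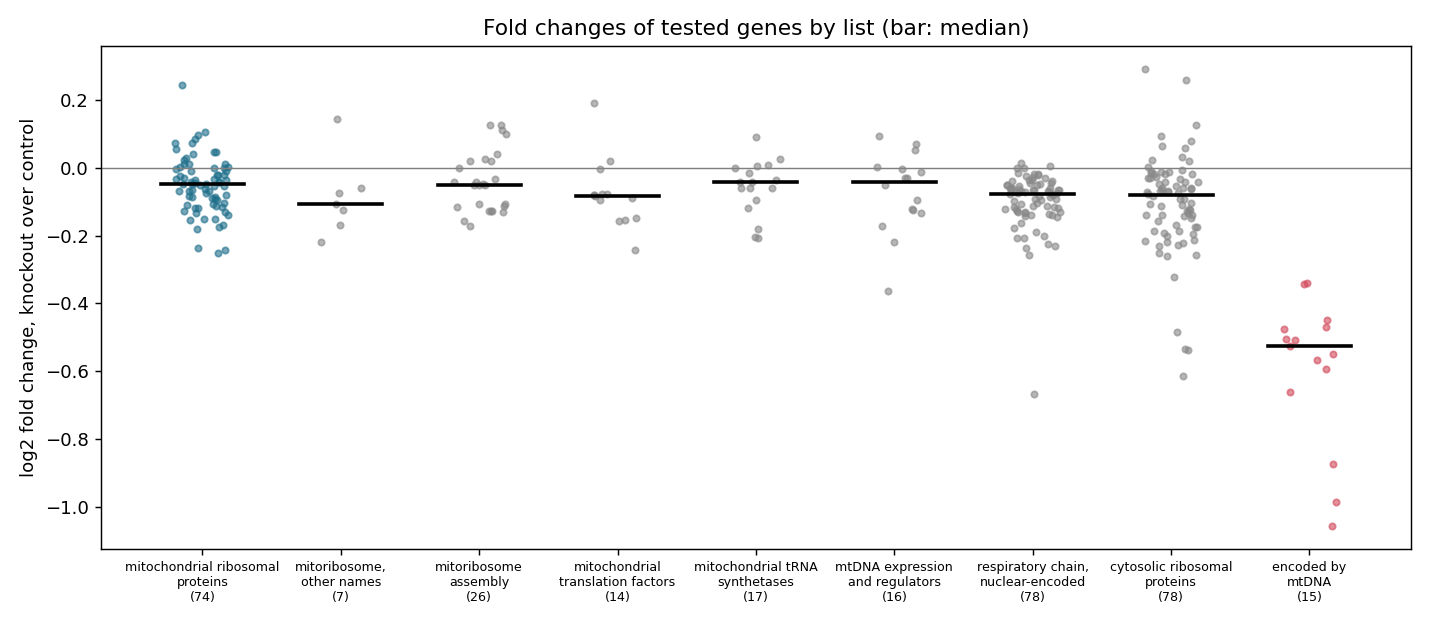
Log2 fold change, knockout over control, of tested genes in 9 lists, each point a gene and each bar the median, with the number of points in parentheses. Among the assembly factors, Nsun4 is drawn and counted as 2 points. Genes encoded by mitochondrial DNA have a median of −0.526, while the mitochondrial ribosomal proteins lie around −0.049.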

How the data were processed

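RNA-seq was measured in 3 knockout and 3 control colon libraries. The values used are raw read counts per gene, deposited by the authors in 1 table with no normalization. Per the labels' design text, reads were mapped to mm10 with TopHat 2.1.0, counted with HTSeq 0.5.4p5 (samtools 1.3.1) and compared by edgeR 3.4.2. Instead, the submitters' processing notes list Bowtie 0.12.2 and 2 builds, mm8 and mm10, so the accounts differ. The sources used here do not say whether counting used strand. The authors' deposited mean signal was not used. The authors' deposited log2 fold change, its standard error and statistic (score columns) and the p-value and adjusted p-value columns were used only where the text names that table.

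Counts were scaled by TMM, filtered with filterByExpr (14180 of 22354 genes kept) and tested with edgeR 4.0.16 in R 4.3.3, by the quasi-likelihood F test with group as sole term and Benjamini-Hochberg adjustment over all tested genes. DESeq2 1.42.0, the edgeR exact test, limma 3.58.1 (voom), other scalings and filters, a replicate block and each library left out were alternatives. Intervals are at 95%, from the quasi-likelihood degrees of freedom, and the standard error is the fold change over the root of F. At totals of 18918880 to 25867997 counts, low counts limit mainly Mrpl23, Mrpl53 and Mrps36, below 1 CPM. With 3 libraries a group, an exact two-sided permutation test reaches 0.1 at best. Tests were checked on simulated data, and no libraries of a group agreed within sampling noise. Labels name separate mice.

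Replicate numbers were not treated as pairs in the main test. Deviations of same-numbered libraries correlated at −0.052, −0.143 and 0.143, which with 3 libraries a group can neither show nor exclude pairing. The members and lists were chosen with earlier results of these data known. By rule, the text names the 5 highest and 5 lowest members per kb, the 6 highest and 6 lowest fold changes, untested members, Mrpl12, the Mrps18 genes, Mrps30, Mrps36, Smad4 and up to 3 genes of each mitochondrial list with the smallest p. A gene that the rule takes is not reported here. Structural regions, sequence copies and other members were chosen after values were seen, as were the motifs, of which 7 patterns were looked at and 5 are given.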

Additional observations from a re-analysis of the deposited data

How the results depend on the processing

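The count of members past the threshold was 0 under each alternative run: 3 other scalings, 2 other filters, DESeq2, the exact test, limma-voom, the replicate block, leaving out antibody, T cell receptor and mtDNA genes, and each library left out with edgeR or DESeq2. Over all genes, edgeR called 0, and the count was 157 with no count filter, 327 with DESeq2 and 384 with the exact test. Leaving out 1 library gave 0 to 266 with edgeR, with 17 without control replicate 1 and 266 without knockout replicate 3, and 141 (without knockout replicate 1) to 487 (without control replicate 1) with DESeq2. The replicate block gave 0 genes, 0 members and a member median of −0.051, and replicate 3 alone correlated best with its own number. The member median lay between −0.096 (without knockout replicate 1) and 0.010 (without knockout replicate 2), and between −0.052 and −0.037 under the other settings. The log2 ratio of large to small subunit differed by −0.039 to −0.003 with a library left out and by −0.029 to −0.008 otherwise, and the log2 sum of all members by −0.088 to −0.007. With a library left out, fold changes near 0 changed sign: Mrpl34 ranged from −0.095 to 0.085, Mrpl52 from −0.076 to 0.028, Mrpl54 from −0.023 to 0.131, Mrps30 from −0.100 to 0.033, Mrps33 from −0.028 to 0.266 and Mrps36 from −0.105 to 0.205. The cause was not tested. The other 11 named members kept their direction, Mrps16 between −0.309 and −0.205 and Mrps18b between 0.13 and 0.361. Low counts limit Mrps36, Mrpl23 and Mrpl53, each with at most 22 counts in a library. The parts of depth and of shared sequence in these counts were not tested.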
